A study of Rattus norvegicus with 6 samples.

Results

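Expression of 6 matrix metalloproteinase genes (Mmp3, Mmp10, Mmp13, Mmp2, Mmp9 and Mmp14) and of their inhibitor Timp1 was followed in endothelial cells of the rat abdominal aorta. The genes were taken from the gene table by 7 listed Ensembl identifiers, all 7 of which were among its 32879 rows. The table holds no symbols, so the symbols come from that list and were not checked against an annotation that pairs them. The members were chosen by gene family, with the measured KD against WT differences of these same libraries in view. The differences between groups given here for the 7 genes are therefore descriptions, and the calls quoted for them support nothing further. Of the 7 genes, 3 rose in the KD libraries, 2 were measured but did not pass the threshold, and 2 were listed at 0 in every library.

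The study sequenced 6 libraries, 3 labelled wild type (WT) and 3 labelled as a miR-337-3p knockdown in the genotype field (KD). Primary cells of the inner lining of the vessel were grown on fibronectin, and all libraries were built from full-length cDNA with few PCR cycles. The KD libraries carry KO in their titles, and the study's design text writes the genotype as miRNA-337-3p-/-. The treatment text, worded alike for WT and KD, names transfection with 100 nM of an inhibitor of hsa-miR-337-3p, so what the WT cells received is not settled by the labels. Nothing in the labels says whether the 3 libraries of a group came from separate animals or cultures, and the spread between them may be technical. Endothelial, smooth muscle, fibroblast and leukocyte markers could not be looked up without symbols, so the labelled cell type was not checked.

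A microRNA lowers the output of messenger RNAs that pair with it, mostly through its seed, bases 2 to 8. The rat microRNA of the name in the genotype field is shown, with its seed in capitals (RefSeq, GRCr8, chr6:134321201-134321223, plus strand). The inhibitor is named for the human form, hsa-miR-337-3p, and whether the human form has the same seed was not tested.
rno-miR-337-3p: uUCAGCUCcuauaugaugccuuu
None of the other mature rat microRNAs in the same RefSeq table (724 in all) has this seed. Pairing of the seed with the 7 transcripts was not examined, since no transcript sequence was used.

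Matrix metalloproteinases are zinc-dependent enzymes, made as inactive precursors, that cut the proteins of the extracellular matrix. Stromelysins such as Mmp3 and Mmp10 cut proteoglycans, laminin and fibronectin and activate other precursors. Mmp13 is the main interstitial collagenase of rodents, Mmp2 and Mmp9 are the gelatinases that cut basement membrane collagen, and Mmp14 sits in the cell membrane and activates the Mmp2 precursor. Timp1 blocks most of the secreted members. In the aortic wall these enzymes are known for the remodelling of collagen and elastin.

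Each library held between 5037127 and 5385434 estimated counts, and levels are given as CPM, counts scaled to a common library total of 1000000, without correction for transcript length. Levels are therefore compared between libraries and not between genes. The exceptions are rows ordered by mean abundance and levels called moderate or high, which go by counts and not per length. Differences between KD and WT were fitted with edgeR over all 12852 rows with enough counts, and a row was called at a Benjamini-Hochberg adjusted p under 0.05. This background was wide: 21.2% of the tested rows were called, 11% with KD higher and 10.3% with KD lower. The balance turned when plain library totals replaced the TMM factors of the fit (1234 rows with KD higher and 1633 with KD lower, against 1409 and 1321), and CPM rest on such totals too. Among the 5 members with enough counts to test, 3 were called, all with KD higher. Nothing about the family is read from that count, because the members were chosen with this comparison known. In cultures sequenced in bulk, a change in the share of cells that express a gene and a change in the level per cell cannot be told apart.

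**Figure D1:**
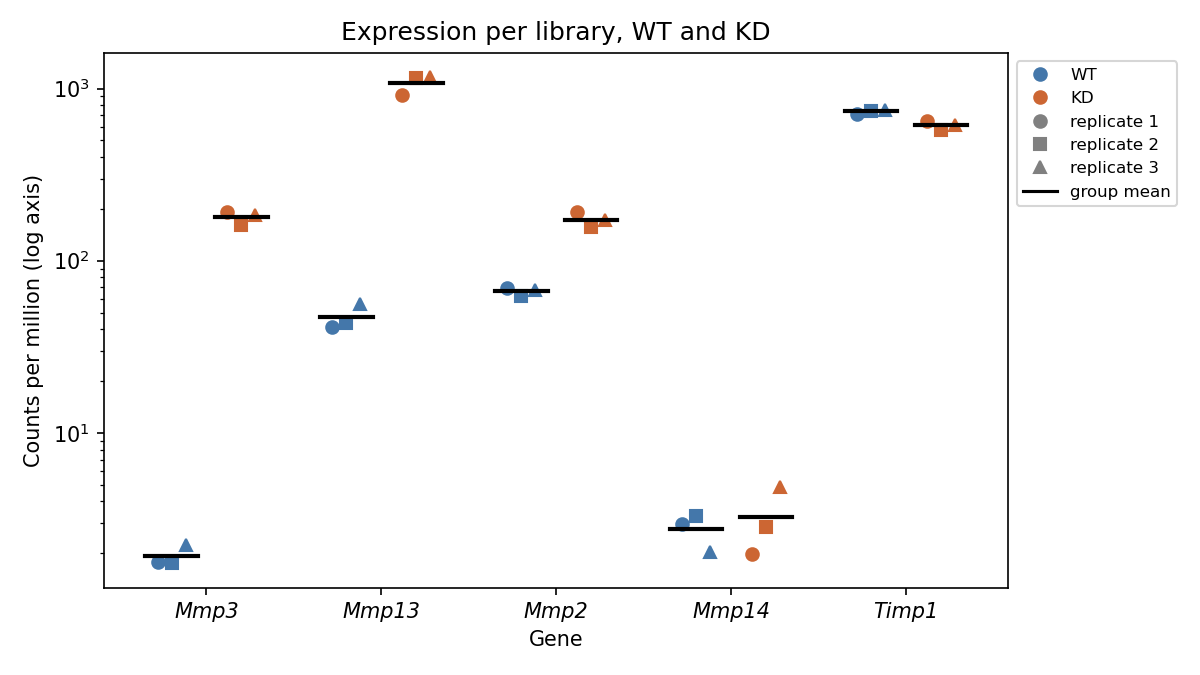
Levels in CPM (log axis) of 5 genes in each of the 3 WT (blue) and 3 KD (orange) libraries, with marker shapes for the replicate number and black lines for group means. Mmp3, Mmp13 and Mmp2 lie higher in all KD libraries, Timp1 lies slightly lower, and the Mmp14 groups overlap; Mmp10 and Mmp9 are at 0 throughout and cannot be drawn on a log axis.

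Mmp3 (ENSRNOG00000032626) went from a trace to a well-covered transcript. Its level was 1.77, 1.75 and 2.23 CPM in WT replicates 1 to 3 and 191, 161 and 185 CPM in KD replicates 1 to 3. The WT libraries rest on 9, 9 and 12 counts. The groups lay far apart, with the lowest KD library 72.2 times the highest WT library. In CPM, 35.4% of all tested rows had groups that did not overlap, 14.9% with KD above WT. The fitted log2 fold change of Mmp3 was 6.57. Because the WT group held only 30 counts in all, against 2767 in KD, its precision is better given by the count ratio of 93.2 (95% exact interval 65.1 to 138, which covers counting error only). Of all tested rows 1 had a larger fitted rise, and none of the 1822 rows with at least its mean abundance did.

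Mmp10 (ENSRNOG00000032832), the other stromelysin of the list, was listed at 0 counts in all 6 libraries. A count of 0 allows up to 3 counts, which corresponds to 0.557 to 0.596 CPM in these libraries. Mmp10 was thus not detected in WT cells or in the KD cells in which Mmp3 reached 161 to 191 CPM. Mmp3 and Mmp10 are close paralogs, and the counting rule for reads that fit both is not given in the sources used here. The Mmp3 estimates were whole numbers in all 3 WT libraries and in 1 of 3 KD libraries (963.48 and 953.908 in KD replicates 1 and 3). Other members were whole in fewer libraries, Mmp13 and Timp1 in 1 of 6 and Mmp2 in 2 of 6, or in all 6 (Mmp14). Estimates that are not whole can arise where a counter shares a read among rows. Which rows, if any, shared reads with Mmp3 was not tested.

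Mmp13 (ENSRNOG00000008478), the interstitial collagenase, rose from a moderate to a high level. It was measured at 41.1, 43.7 and 56.4 CPM in WT and at 913, 1150.3 and 1162 CPM in KD libraries. Group means were 47.1 ± 8.20 CPM in WT and 1075 ± 141 CPM in KD (SD, n = 3 each). All KD values lay above all WT values, and the lowest KD library was 16.2 times the highest WT library. The fitted log2 fold change was 4.56 with a standard error of 0.13. In counts the ratio was 22.8 (95% exact interval 21.2 to 24.6, which covers counting error only). Mmp13 varied between the libraries of a group by more than counting error, so this interval is too narrow for the difference between groups. Of all tested rows 10 had a larger fitted rise, and none of the 270 rows with at least its mean abundance did.

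**Figure D2:**
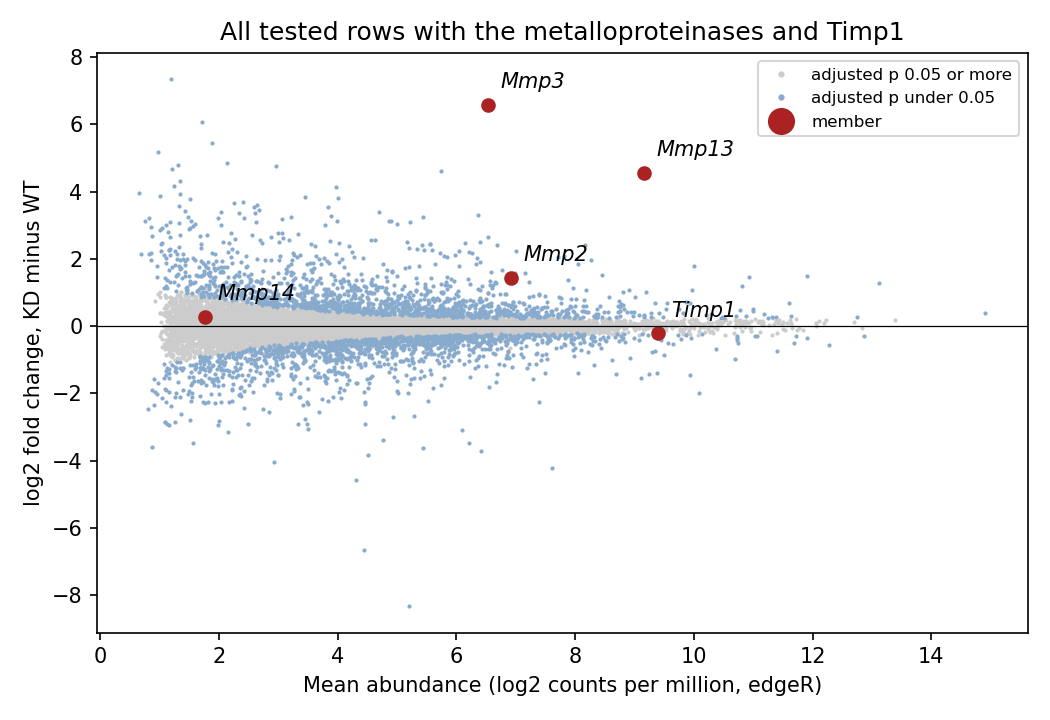
Fitted log2 fold change (KD minus WT) against mean abundance (log2 CPM) for all 12852 tested rows, blue where the adjusted p was under 0.05 and grey otherwise, with the 5 tested members in red. Mmp3 (6.57) and Mmp13 (4.56) stand above every row of equal or higher abundance, while Mmp2 (1.43), Mmp14 (0.28) and Timp1 (-0.22) lie among other rows.

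Mmp13, Mmp3 and Mmp10 belong to a run of metalloproteinase genes on chromosome 8. The table rests on mRatBN7.2, so RefSeq's GRCr8 is used here for gene order and sequence alone. In that order the stretch from Mmp13 to Mmp10 holds 6 protein-coding genes, Mmp13, Mmp12, Mmp1b, Mmp3, Mmp1 and Mmp10, and Mmp8 comes next. Rows of Mmp12, Mmp1b and Mmp1 were not identified in the table, so whether the genes between the 3 members changed was not tested. Proximal promoters of metalloproteinase genes are known for an AP-1 site, bound by Fos and Jun proteins, close to a TATA box. The 250 bases before the RefSeq start are shown for the stromelysins and the collagenase, since Mmp3 and Mmp13 both rose in KD and Mmp10 did not appear. Capitals mark matches to TGANTCA (AP-1, N any base, both strands, a palindromic pattern counted once per place) and to TATAAA on the gene's strand. The windows are GRCr8 chr8:12925031-12925280, chr8:12782579-12782828 and chr8:12974457-12974706, all on the plus strand.
Mmp3: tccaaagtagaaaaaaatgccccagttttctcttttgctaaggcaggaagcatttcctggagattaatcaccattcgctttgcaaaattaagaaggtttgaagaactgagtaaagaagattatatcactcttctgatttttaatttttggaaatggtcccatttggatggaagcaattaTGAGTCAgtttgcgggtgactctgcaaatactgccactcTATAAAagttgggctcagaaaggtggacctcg
Mmp13: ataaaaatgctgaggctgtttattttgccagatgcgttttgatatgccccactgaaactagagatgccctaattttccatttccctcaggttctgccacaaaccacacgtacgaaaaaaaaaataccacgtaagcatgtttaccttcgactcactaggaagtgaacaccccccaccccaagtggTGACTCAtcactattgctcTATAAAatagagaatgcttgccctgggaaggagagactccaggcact
Mmp10: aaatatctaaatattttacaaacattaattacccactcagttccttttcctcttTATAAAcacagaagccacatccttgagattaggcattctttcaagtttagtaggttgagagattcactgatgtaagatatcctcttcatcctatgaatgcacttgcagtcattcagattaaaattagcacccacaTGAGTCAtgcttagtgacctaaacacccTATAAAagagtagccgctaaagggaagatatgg
Each of the 3 windows held 1 AP-1 match, which began 71 bases before the start in Mmp3, 66 in Mmp13 and 61 in Mmp10. A TATAAA match followed at 32, 47 and 33 bases before the start, and Mmp10 had a further one at 196 bases. Over all 33469 RefSeq promoter windows of the same 300 bases (250 before and 50 after the start), 7.33% held the AP-1 pattern, 8.80% held TATAAA on the gene's strand and 0.911% held both. TATAAA was added after these sequences were seen, so the shares that include it are description and test nothing. Mmp10, at 0 counts in these cells, thus shared both patterns with Mmp3 and Mmp13. The Timp1 window held neither exact pattern. It does hold tgagtaa, which differs from TGANTCA by 1 base. Near matches were not counted in any window, so a lack of AP-1 sites in Timp1 is not read from this. GGAA, the core of Ets factor sites, had 5 matches in Mmp3, 4 in Mmp13, 4 in Mmp10 and 6 in Timp1 (both strands). These counts are for the windows of 300 bases, and 1 of the Mmp3 matches lay after the start, outside the bases shown. Of all windows, 95.8% held GGAA. In these 4 windows 0 matches of one pattern overlapped a match of another. A match describes letters only.

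**Figure D3:**
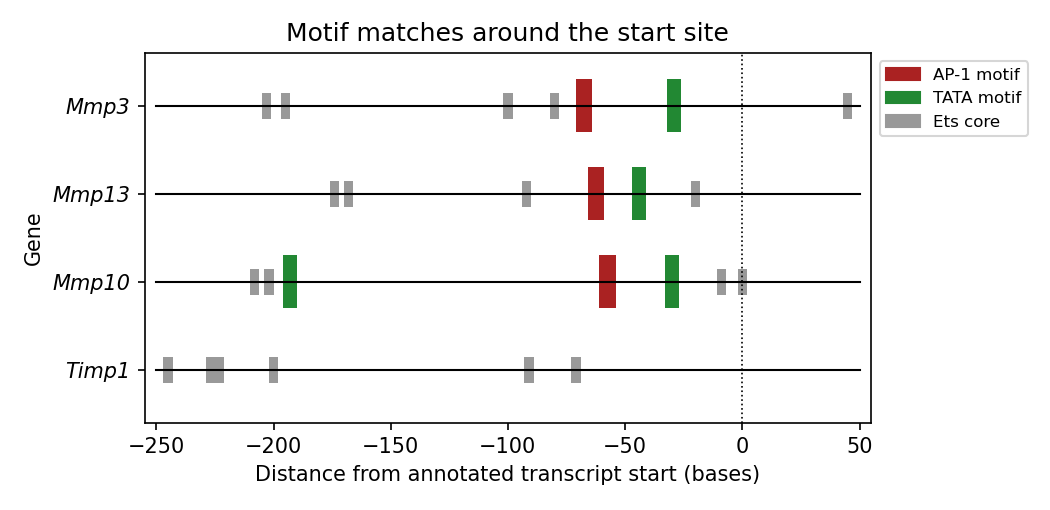
Matches to 3 sequence patterns from 250 bases before to 50 after the annotated start (distance in bases) of 4 genes: AP-1 in red, TATA on the gene's strand in green, Ets core on both strands in grey. Mmp3, Mmp13 and Mmp10 each have an AP-1 match at 61 to 71 bases before the start followed by a TATA match. Of the 3 exact patterns Timp1 has Ets core matches alone, and near matches are not drawn.

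Mmp2 (ENSRNOG00000016695), the gelatinase that cuts basement membrane collagen, rose less. Its level was 69.5, 62.3 and 67.2 CPM in WT and 191, 157 and 172 CPM in KD libraries. The KD values all lay above the WT values, the lowest at 2.26 times the highest WT library. Means were 66.3 ± 3.67 CPM in WT and 173 ± 17.1 CPM in KD (SD, n = 3 each). The fitted log2 fold change was 1.43 with a standard error of 0.09, which is 2.70-fold. Rises called at a fold of at least 2 made up 3.8% of tested rows, and 281 tested rows had a larger fitted rise than Mmp2.

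The other gelatinase, Mmp9 (ENSRNOG00000017539), was listed at 0 counts in every library, under the same limit of 0.557 to 0.596 CPM as Mmp10. No change of Mmp9 was detectable at this depth.

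Mmp14 (ENSRNOG00000010947), the membrane-bound activator of the Mmp2 precursor, was close to the limit of counting. It had 15, 17 and 11 counts in WT and 10, 15 and 25 in KD libraries, or 2.95, 3.30 and 2.04 against 1.99, 2.84 and 4.86 CPM. The groups overlapped, with both the lowest and the highest library in KD. Its fitted log2 fold change was 0.28 with a standard error of 0.34 and did not pass the threshold. It turned to -0.14 without KD replicate 3, the library with 25 counts. The count ratio of 1.17 had a 95% exact interval of 0.766 to 1.81, so counting error alone leaves room for a difference of either sign.

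Timp1 (ENSRNOG00000010208), the inhibitor, was measured at 709, 745 and 754 CPM in WT and at 649, 572 and 616 CPM in KD libraries. All KD values lay below all WT values, which 20.5% of tested rows did. Means were 736 ± 24.1 CPM in WT and 612 ± 38.7 CPM in KD (SD, n = 3 each). The fitted log2 fold change was -0.22 with a standard error of 0.08, and Timp1 missed the threshold (edgeR adjusted p = 0.053). It passed without KD replicate 1 (adjusted p = 0.020), the KD library with the highest Timp1 level, and reached 0.176 without WT replicate 2, the highest with single libraries left out. Scaling by library size alone, limma-voom and a replicate block also put it past the threshold (adjusted p = 0.012, 0.043 and 0.032), whereas DESeq2 did not (adjusted p = 0.051).

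Ratios of counts within a library do not depend on how libraries are scaled, so enzyme counts were also set against those of the inhibitor. For 1000 Timp1 counts there were 2.50, 2.35 and 2.96 Mmp3 counts in WT and 295, 281 and 301 in KD libraries. The change was 113-fold. Mmp13 went from 58.0, 58.6 and 74.8 to 1407, 2012 and 1887 counts per 1000 Timp1 counts, a 27.7-fold change. For Mmp2 the ratio was 98.0, 83.6 and 89.2 in WT and 295, 275 and 279 in KD, a 3.13-fold change. In all 3 ratios every KD library lay above every WT library. This follows from the levels given above, with every KD library above WT for each enzyme and below WT for Timp1. It is therefore not a further result. These ratios are not per length, so their change between groups can be read but not which transcript was more frequent.

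The makeup of the metalloproteinase counts changed with the total. Summed over the 6 metalloproteinase rows the level was 118 ± 8.78 CPM in WT and 1431 ± 119 CPM in KD (SD, n = 3 each), a ratio of 12.1. Of these counts, Mmp2 supplied 56.3% ± 3.86 in WT and 12.2% ± 2.19 in KD. The share of Mmp13 was 39.7% ± 4.24 in WT and 74.9% ± 4.07 in KD, and that of Mmp3 1.62% ± 0.110 and 12.6% ± 1.94 (SD, n = 3 each). Mmp14 held 2.38% ± 0.706 in WT and 0.222% ± 0.0865 in KD (SD, n = 3 each). These are shares of counts and not per length, so only their change is read. Shares add up to the whole, so the lower shares of Mmp2 and Mmp14 follow from the rises of Mmp13 and Mmp3. They are not a further result and not a fall in level. Mmp2 itself rose in KD, and Mmp14, with 43 counts in WT and 50 in KD, was not called.

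The spread within each group is a measure apart from the difference between groups. Mmp13 varied most among the well-counted members, with a coefficient of variation of 17.4% in WT and 13.1% in KD, where counting error alone gives 6.38% and 1.34%. For Mmp2 the values were 5.53% in WT, near the 5.38% of counting error, and 9.85% in KD against 3.35%. Timp1 was the steadiest, at 3.28% in WT and 6.32% in KD. Mmp3 varied by 14.2% in WT, below the 31.6% that counting error gives at 9 to 12 counts, and by 9.00% in KD.

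Members did not deviate together in all libraries. In KD replicate 1 the log2 level lay above its group mean by 0.10 for Mmp3, 0.15 for Mmp2 and 0.09 for Timp1, while Mmp13 stood at -0.23. In KD replicate 2 the signs were the opposite, with Mmp3 at -0.15, Mmp2 at -0.14, Timp1 at -0.10 and Mmp13 at 0.11. KD replicate 3 had 0.05, -0.01, 0.01 and 0.12 in the same order. The 3 deviations of a gene in a group cancel by construction, so the opposite signs of replicates 1 and 2 are not separate observations. In KD, Mmp3 counts per 1000 Mmp13 counts were 210, 140 and 160, a coefficient of variation of 21.2%. Mmp3 per 1000 Mmp2 counts were 1001, 1024 and 1078 in KD, which varied by 3.86%. In WT, Mmp3 and Mmp13 deviated with the same sign in each library, and Mmp3 counts per 1000 Mmp13 counts were 43.1, 40.0 and 39.5. With 9 to 12 Mmp3 counts a library, nothing is read from the shared signs or from how little the ratio varied. With 3 libraries a group, these orders are descriptions of single libraries.

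**Figure D4:**
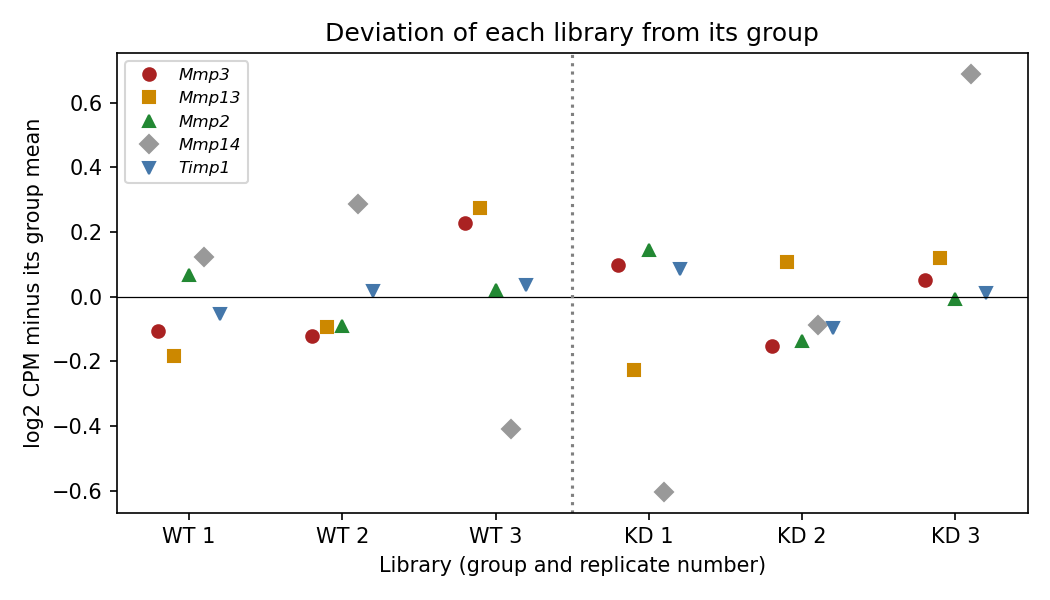
Difference of each library's log2 CPM from its group mean for 5 genes, with the WT libraries on the left and the KD libraries on the right of the dotted line. Mmp3, Mmp2 and Timp1 share their sign in the KD replicates 1 and 2 with Mmp13 opposite, and the low-count Mmp14 spreads the most.

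Outside the list, the rows whose pattern over the 6 libraries was nearest to that of Mmp3 were sought by Euclidean distance of centred log2(CPM + 0.5) values among tested Ensembl rows. The nearest was ENSRNOG00000060460 at a distance of 2.25. It had 4.52, 4.66 and 3.53 CPM in WT and 102, 96.9 and 104 CPM in KD libraries, and its fitted log2 fold change was 4.62 ± 0.13 (standard error). The next was ENSRNOG00000014398 at 2.94, which went from a mean of 0.514 ± 0.228 to 14.2 ± 2.11 CPM (SD, n = 3 each) on 8 WT and 219 KD counts. Both changed less than Mmp3 itself, and the distance mainly reflects the size of the rise. No table at hand gives these identifiers a symbol. No member with a fall was called, so no such search was made for falls.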

How the data were processed

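The values are the authors' deposited estimated counts per gene, without normalization, on the genome build mRatBN7.2 per the submitters' processing notes. How reads were aligned and counted, and with which strand setting, is not given in the sources used here. Of the counts above 0, between 39.3% and 40.8% per library were not whole numbers (as printed, with a tolerance of 0), so counts were rounded for testing. KD and WT were compared with the quasi-likelihood test of edgeR 4.0.16 under R 4.3.3, with group as the only term, rows kept by filterByExpr, scaling by TMM and Benjamini-Hochberg adjustment over all tested rows, after the script was tested on simulated data. Standard errors were approximated from the log2 fold change and its F value. CPM used the totals of all 32879 rows. Count ratios have 95% exact (Clopper-Pearson) intervals, and a count of 0 was read as allowing 3 counts. These cover counting error only. Replicates differed by more than sampling noise.

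The members, gene lists and tests were chosen with earlier results of these data known. The named genes are the 7 members plus the 2 Ensembl rows nearest to the called member with the largest rise (and, had one been called, the largest fall). Lists of other proteases, inhibitors, plasminogen system genes, substrates, transcription factors and cell type markers were not analysed here, since the RefSeq gene list (GRCr8) pairs 0 of the table's identifiers with symbols. RefSeq promoters (GRCr8) were matched by symbol for 4 of the 7 members. The AP-1 and Ets patterns were planned, and TATAAA was added after the sequences were seen. The alternatives changed the tool (limma 3.58.1 with voom, or DESeq2 1.42.0), the scaling (library size alone, upper quartile or RLE), the filter (none, or mean counts from 50 up), the threshold (0.01), the model (a replicate block), the libraries (each left out in turn) or the CPM (TMM factors).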

Additional observations from a re-analysis of the deposited data

How the results depend on the processing

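Mmp3, Mmp13 and Mmp2 passed the threshold with the same sign in all 14 alternatives run for each, with log2 fold changes of 6.50 to 6.71, 4.45 to 4.73 and 1.36 to 1.50, and these ends of each range came from single libraries left out. Timp1 kept its direction in its 14 alternatives (-0.27 to -0.17, and -0.26 to -0.17 with single libraries left out) and passed the threshold in 4 of them: limma-voom (-0.22), library size alone (-0.27), the replicate block (-0.22) and without KD replicate 1 (-0.26). The cause was not tested. Mmp14 passed in 0 of 13 alternatives (edgeR, DESeq2 and limma-voom, unadjusted p = 0.43, 0.55 and 0.57) and had too few counts for the filter at a mean of 50. Its log2 fold change was -0.14 to 0.53 with single libraries left out, and it was reversed at -0.14 without KD replicate 3, the cause not tested. The number of rows past the threshold was 2730, and 1988 to 2759 with single libraries left out. DESeq2 called 1968 rows, and falls numbered 824 at an adjusted p of 0.01, fewer by the stricter threshold. Group means of the 5 tested members moved by less than 1 SD with TMM factors in the CPM. Whether title numbers pair the libraries was not settled. Same-numbered WT and KD libraries had deviations that correlated at -0.02, 0.00453 and 0.04 across rows. Differently numbered ones correlated at -0.03 to 0.03, and such values cannot show how the libraries were made. With the replicate block 2960 rows passed, and of the members it changed only the Timp1 call. The alternatives for the protease lists were not run. Depth limits Mmp14, Mmp10 and Mmp9, and the WT level of Mmp3.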
